A study of Mus musculus with 18 samples.

Results

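The genes described here are 40 genes of the cell cycle and of proliferation, taken as a list of gene symbols. They were read in mIMCD-3 cells, a line from the inner medullary collecting duct of a mouse that carried the early region of SV40, whose large T antigen binds the Rb and p53 proteins. The question was whether loss of signaling by all-trans retinoic acid (tRA) touched these genes, or whether they differed only from one culture replicate to the next. Of the 40 genes, 38 had at least 1 transcript cluster of their own on the array, a set of probes read as 1 value, and these gave 42 of the 23410 clusters with a gene symbol. Pcna, Tk1, Cdkn1b and Top2a had a pair of clusters each. Cdkn1a was read only by a cluster that it shares with 4930567H12Rik, 2 further clusters list Top2a together with Hibadh, and Ccnb1 was not analysed here.

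Transcript levels came from 18 arrays (Affymetrix Mouse Gene 1.0 ST) in 2 experiments, each with 3 groups of 3 arrays numbered as replicates 1, 2 and 3. In the AGN193109 experiment, cells received 1 µM AGN193109, an antagonist of the retinoic acid receptors, together with 0.2 µM tRA, or 1 µM AGN193109 alone, or vehicle. In the DEAB experiment, cells received 25 µM DEAB (diethylaminobenzaldehyde), an inhibitor of the aldehyde dehydrogenases that make tRA, together with 0.01 µM tRA, or 25 µM DEAB alone, or vehicle. Treatment lasted 24 h in all groups, vehicle was 0.1% DMSO with 0.1% ethanol, and all groups were kept in low serum. The line is 1 immortalized clone that expresses a viral oncoprotein, so its Rb and p53 pathways are not those of a normal collecting duct cell, and each experiment had its own vehicle arrays.

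A cell enters the cycle when D cyclins activate Cdk4 and Cdk6, which phosphorylate Rb proteins and free E2F factors to switch on the genes of S phase. Inhibitors of the Ink4 family (Cdkn2a, Cdkn2b) block Cdk4 and Cdk6, and those of the Cip/Kip family (Cdkn1a, Cdkn1b) bind cyclin and kinase complexes. The genes of G2 and mitosis come on later and are held down in resting cells by complexes that bind CHR elements, often beside CCAAT boxes. Retinoic acid slows proliferation in many cell types, and large T antigen frees E2F factors by binding Rb proteins.

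The list falls into 3 roles: 9 genes for the G1 cyclins, their kinases and inhibitors, 13 for the G1/S transition and DNA replication, and 18 for G2/M and mitosis. Promoter windows of 250 bases before to 50 bases after the start were found for 32 of the 40 genes in RefSeq (GRCm38.p6). Both strands were searched for exact letters. A CHR element (TTTGAA or TTCGAA) was in 11 of 14 windows of G2/M genes (78.6%), against 19.4% of the 27025 genes with a window. A CCAAT box (CCAAT) was in 13 of those 14 windows (92.9%), against 37.9% of all genes, and in 7 of 11 windows of G1/S genes. An E2F site (TTTGGCGC, TTTCCCGC, TTTCGCGC or TTTGCCGC) was in 5 of 11 windows of G1/S genes (45.5%) and in 1 of 14 windows of G2/M genes, against 2.32% of all. The half-site AGGTCA, which retinoic acid receptors bind in pairs, was in 5 of 32 windows (15.6%), against 16% of all genes, and as a direct repeat with 5 bases between in 0 of 32 and in 2 of the 27025. A match is a stretch of letters and not a binding site. The 250 bases before the start of 4 genes are printed 5′ to 3′ because the results turn on Cdkn2b and Cdkn1b, while Mcm6 and Ccnb2 show the layout of the other roles; capitals mark CHR, CCAAT and E2F letters on either strand. Cdkn2b is at chr4:89311033-89311282 (minus strand), Cdkn1b at chr6:134920151-134920400 (plus strand), Mcm6 at chr1:128359706-128359955 (minus strand) and Ccnb2 at chr9:70421555-70421804 (minus strand).
Cdkn2b: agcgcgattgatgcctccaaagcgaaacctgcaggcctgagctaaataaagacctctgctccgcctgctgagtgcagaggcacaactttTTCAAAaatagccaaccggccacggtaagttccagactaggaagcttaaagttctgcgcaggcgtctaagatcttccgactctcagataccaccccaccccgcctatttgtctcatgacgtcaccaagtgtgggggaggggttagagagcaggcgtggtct
Cdkn1b: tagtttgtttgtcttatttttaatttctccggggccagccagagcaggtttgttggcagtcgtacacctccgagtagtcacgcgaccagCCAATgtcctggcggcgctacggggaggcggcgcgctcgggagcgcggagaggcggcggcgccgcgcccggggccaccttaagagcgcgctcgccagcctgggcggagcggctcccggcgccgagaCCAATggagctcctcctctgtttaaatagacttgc
Mcm6: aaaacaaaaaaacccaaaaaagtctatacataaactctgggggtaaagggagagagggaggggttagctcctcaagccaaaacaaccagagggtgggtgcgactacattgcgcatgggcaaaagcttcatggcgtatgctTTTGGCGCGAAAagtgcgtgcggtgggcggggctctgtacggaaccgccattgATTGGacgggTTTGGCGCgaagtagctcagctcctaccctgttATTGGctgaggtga
Ccnb2: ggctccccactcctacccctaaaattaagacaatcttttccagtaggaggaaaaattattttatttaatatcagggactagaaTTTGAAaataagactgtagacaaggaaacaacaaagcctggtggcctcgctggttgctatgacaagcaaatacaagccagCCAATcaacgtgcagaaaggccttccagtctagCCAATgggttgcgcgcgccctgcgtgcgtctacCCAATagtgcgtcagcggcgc
In these stretches Cdkn2b has 1 CHR match and no CCAAT or E2F match, and Cdkn1b has 2 CCAAT boxes. Mcm6 has 3 E2F matches, of which 2 overlap, and 2 CCAAT boxes, and Ccnb2 has 3 CCAAT boxes and 1 CHR match. The searched windows also hold a further CHR match of Ccnb2 and a further CCAAT box of Cdkn1b, which lie after the start and are not printed.

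The deposited values are log2 levels from the Robust Multichip Average (RMA). Array medians ran between 7.23 and 7.33 for the AGN193109 experiment and between 7.48 and 7.51 for DEAB. Levels are therefore set side by side only within an experiment. The epithelial genes Cdh1 and Krt8 read 12.18 to 12.97 and 13.40 to 14.17, and the principal cell gene Aqp2 read 7.56 to 8.31. These levels depend on the probes, and the authors reported Aqp2 protein in these cells by immunostaining. Ppbp and Dhrs3 were among the genes that the authors reported as tRA-dependent from these same arrays, so their values are no independent check. The chemokine Ppbp fell by 3.25 with AGN193109 against vehicle (limma, adjusted p = 0.00119) and fell by 2.62 with DEAB (adjusted p = 0.00425). It rose by 2.63 with AGN193109+tRA against AGN193109 (adjusted p = 0.00805) and by 3.51 with DEAB+tRA against DEAB (adjusted p = 0.000445). Dhrs3, a retinaldehyde reductase, was 3.35 higher with DEAB+tRA than with DEAB (adjusted p = 0.0726, with the replicate number as a block 0.00495).

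In vehicle, the mean level was at least 10 for 33 of 42 clusters (median 11.44) with the vehicle of the AGN193109 experiment and for 36 of 42 (median 11.86) with that of the DEAB experiment. The median SD over 3 vehicle arrays was 0.07 with AGN193109 as the inhibitor and 0.05 with DEAB. A level depends on the probes, so no gene is set against another by it.

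With the replicate number left out of the fit, no cell cycle cluster passed the test for a treatment difference. In limma, with p-values adjusted over 23410 clusters, 0 of 42 passed an adjusted p of 0.05 in any of the 6 comparisons of groups. The background was low as well: 0.0683% of all clusters passed for AGN193109 versus vehicle, 0.0214% for AGN193109+tRA versus AGN193109, 0.0342% for DEAB versus vehicle, 0.325% for DEAB+tRA versus DEAB, and 0% for AGN193109+tRA or DEAB+tRA versus vehicle. At an unadjusted p under 0.05, the cell cycle clusters numbered 1 for AGN193109 versus vehicle (3.30% of all clusters), 1 for AGN193109+tRA versus AGN193109 (2.14%) and 0 for AGN193109+tRA versus vehicle (1.79%). They numbered 3 for DEAB versus vehicle (4.05%), 6 for DEAB+tRA versus DEAB (6.39%) and 7 for DEAB+tRA versus vehicle (5.99%). Comparisons within an experiment share arrays: the inhibitor arrays enter the first 2 and the vehicle arrays the first and the last.

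With the replicate number as a block, which pairs the arrays of each independent experiment, 2 cell cycle clusters passed, Cdkn2b and Cdkn1b. Both were lower with DEAB+tRA than with DEAB, where 1.50% of all clusters passed. None passed in the other 5 comparisons, where the block called 0.457% (AGN193109 versus vehicle), 0.0812% (AGN193109+tRA versus AGN193109), 0.00427% (AGN193109+tRA versus vehicle), 0.303% (DEAB versus vehicle) and 0.0214% (DEAB+tRA versus vehicle) of all clusters. Lack of a call does not show equal levels, but the intervals were narrow: the 95% interval of the change lay within 1.5-fold up or down for 41 of 42 clusters in each comparison of the AGN193109 experiment and for 40 of 42 in each of the DEAB experiment. Those outside were the dimmer Cdkn1b cluster in each comparison, and in the DEAB experiment also Ccnd1 (DEAB versus vehicle), the brighter Cdkn1b cluster (DEAB+tRA versus DEAB) or the dimmer Top2a cluster (DEAB+tRA versus vehicle).

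**Figure D1:**
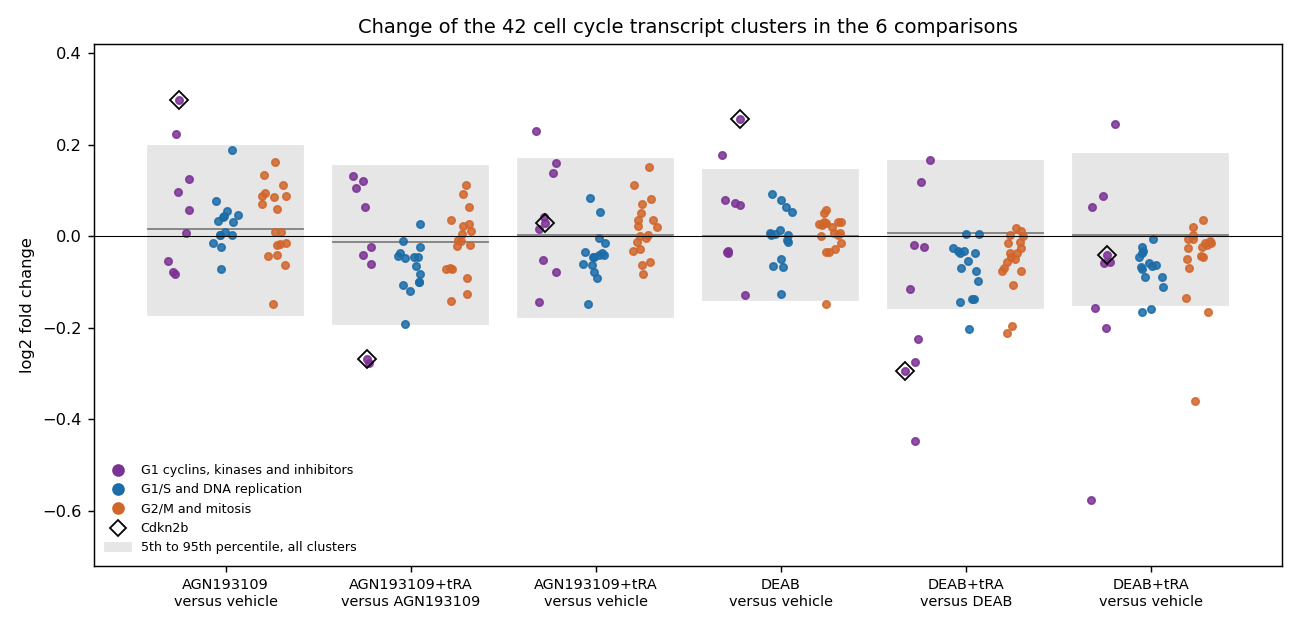
Log2 change of each of the 42 cell cycle clusters (points, coloured by role; diamond, Cdkn2b) in the 6 comparisons. The grey band spans the 5th to 95th percentile of all tested clusters and the grey line their median. Most points lie inside the band, and Cdkn2b lies above it with either inhibitor against vehicle and below it when tRA was added to either inhibitor.

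Cdkn2b, which encodes p15, an inhibitor of Cdk4 and Cdk6, was arranged by treatment in both experiments. Its log2 level in replicates 1, 2 and 3 of the AGN193109 experiment was 10.13, 10.01 and 10.09 with AGN193109+tRA, 10.37, 10.25 and 10.41 with AGN193109 and 10.12, 10.03 and 9.99 with vehicle. The DEAB experiment gave 10.56, 10.57 and 10.52 with DEAB+tRA, 10.86, 10.82 and 10.85 with DEAB and 10.64, 10.64 and 10.49 with vehicle. All 3 arrays of either inhibitor were above all 6 arrays of the other groups in their experiment, with no overlap. Cdkn2b is 1 of 42 clusters looked at, and the share of all clusters with this pattern was not counted. The inhibitor arrays also enter the comparisons with added tRA, so those are not a separate observation. The level was 0.30 higher with AGN193109 than with vehicle on the log2 scale (SE 0.07, 1.23-fold, adjusted p = 0.656) and 0.26 higher with DEAB (SE 0.05, 1.19-fold, adjusted p = 0.372).

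Added tRA went with lower Cdkn2b in both experiments. With AGN193109+tRA it was lower than with AGN193109 by 0.27 (log2 difference -0.27, SE 0.07, adjusted p = 1), and with DEAB+tRA lower than with DEAB (log2 difference -0.30, SE 0.05, adjusted p = 0.0687). Blocking on the replicate number gave the comparison with DEAB an adjusted p of 0.0292, and leaving out vehicle replicate 3 gave 0.0345 without the block. Over 17 alternatives this adjusted p ran between 0.0292 and 0.288, and 4 passed. Within the blocked fit, each array was also left out, an alternative chosen after the data were seen, and the call was lost in all but 1 of 9 such fits (adjusted p 0.0367 to 0.15), standing only without vehicle replicate 3. Against vehicle, the level with tRA differed by 0.03 for AGN193109+tRA (adjusted p = 1) and by -0.04 for DEAB+tRA (adjusted p = 0.905).

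The other inhibitors separated less clearly by treatment, as the plot of levels by array shows. Cdkn1b encodes p27, which binds cyclin and Cdk2 complexes. Its brighter cluster read 11.30, 11.04 and 11.27 with AGN193109+tRA, 11.64, 11.21 and 11.59 with AGN193109 and 11.40, 11.11 and 11.26 with vehicle (replicates 1, 2 and 3). Its levels in the DEAB experiment were 10.97, 11.41 and 11.50 with DEAB+tRA, 11.35, 11.63 and 11.72 with DEAB and 11.27, 11.54 and 11.67 with vehicle. Groups overlapped in each comparison, yet in this cluster the array with inhibitor and tRA was below the array with inhibitor alone within every replicate number. The change was -0.28 for AGN193109+tRA versus AGN193109 (SE 0.13, adjusted p = 1) and -0.27 for DEAB+tRA versus DEAB (SE 0.16, adjusted p = 0.866). With the replicate block the DEAB value had an adjusted p of 0.0478, which was lost in all 9 blocked fits that left out 1 array (0.0804 to 0.219). The dimmer Cdkn1b cluster read 6.95, 7.70 and 7.66 with DEAB+tRA, 7.79, 7.93 and 7.93 with DEAB and 7.68, 8.19 and 8.16 with vehicle. Its 3 arrays with DEAB+tRA were below all 3 with DEAB (-0.45, SE 0.21, adjusted p = 0.802), and it differed from vehicle by -0.58 (SE 0.21, adjusted p = 0.819) with overlap. With AGN193109+tRA the dimmer cluster went the other way, 0.13 above AGN193109 (SE 0.40), with overlap. There replicate 1 read 8.87 against 7.77, replicate 2 read 7.06 against 7.27 and replicate 3 read 7.32 against 7.81. With DEAB against vehicle the dimmer cluster gave -0.13 (SE 0.21) and the brighter one 0.07 (SE 0.16).

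A marker of other cells moved with the same comparison. Smooth muscle actin, Acta2, was 0.58 higher with DEAB+tRA than with DEAB (adjusted p = 0.773, with the block 0.00236). It differed from vehicle by -0.35 with DEAB (SE 0.25, with the block adjusted p = 0.0534) and by -0.11 with AGN193109 (SE 0.22). With AGN193109+tRA it was 0.30 above AGN193109 (SE 0.22, with the block adjusted p = 0.937). Of 13 clusters for markers of other kidney and blood cells, 11 were higher with DEAB+tRA than with DEAB, against 53.3% of all clusters. With AGN193109+tRA against AGN193109, 5 of 13 were higher, against 44.1% of all. In the DEAB experiment the sum of those 13 levels on the linear scale was 1964 to 2276 with DEAB+tRA and 1856 to 2006 with DEAB. With vehicle the sum was 1959 to 2056, which overlaps both. These markers were dim, with Ptprc at 5.89 to 6.25 and Cdh5 at 6.57 to 7.03, while Cd68 reached 9.55 and Acta2 8.90. Their part in the change of Cdkn2b or Cdkn1b was not tested. All cultures were of 1 clonal line, so these levels are not a count of other cell types. In bulk samples, a change in the share of cells with a transcript and a change per cell cannot be told apart.

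Cdkn2a, which encodes p16 and p19Arf, lies 11669 bases from Cdkn2b on chromosome 4. It read 9.89, 9.41 and 9.67 with AGN193109+tRA, 9.85, 9.49 and 9.81 with AGN193109 and 9.99, 9.67 and 9.75 with vehicle. With DEAB and its controls it read 10.03, 10.28 and 10.19 with DEAB+tRA, 10.28, 10.48 and 10.42 with DEAB and 10.16, 10.50 and 10.31 with vehicle. Its difference from vehicle was -0.08 with AGN193109 (SE 0.15) and 0.07 with DEAB (SE 0.10), both with an adjusted p of 1. With DEAB+tRA its 3 arrays were below all 3 with DEAB (-0.23, SE 0.10, adjusted p = 0.778, with the block SE 0.04 and adjusted p = 0.0626). The cluster shared by Cdkn1a, which encodes p21, and 4930567H12Rik was 0.21 lower with DEAB than with vehicle (log2 difference -0.21, SE 0.06, adjusted p = 1), with no overlap, and 0.10 lower with AGN193109 (-0.10, SE 0.08, adjusted p = 1). Which of the pair it read cannot be told apart.

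**Figure D2:**
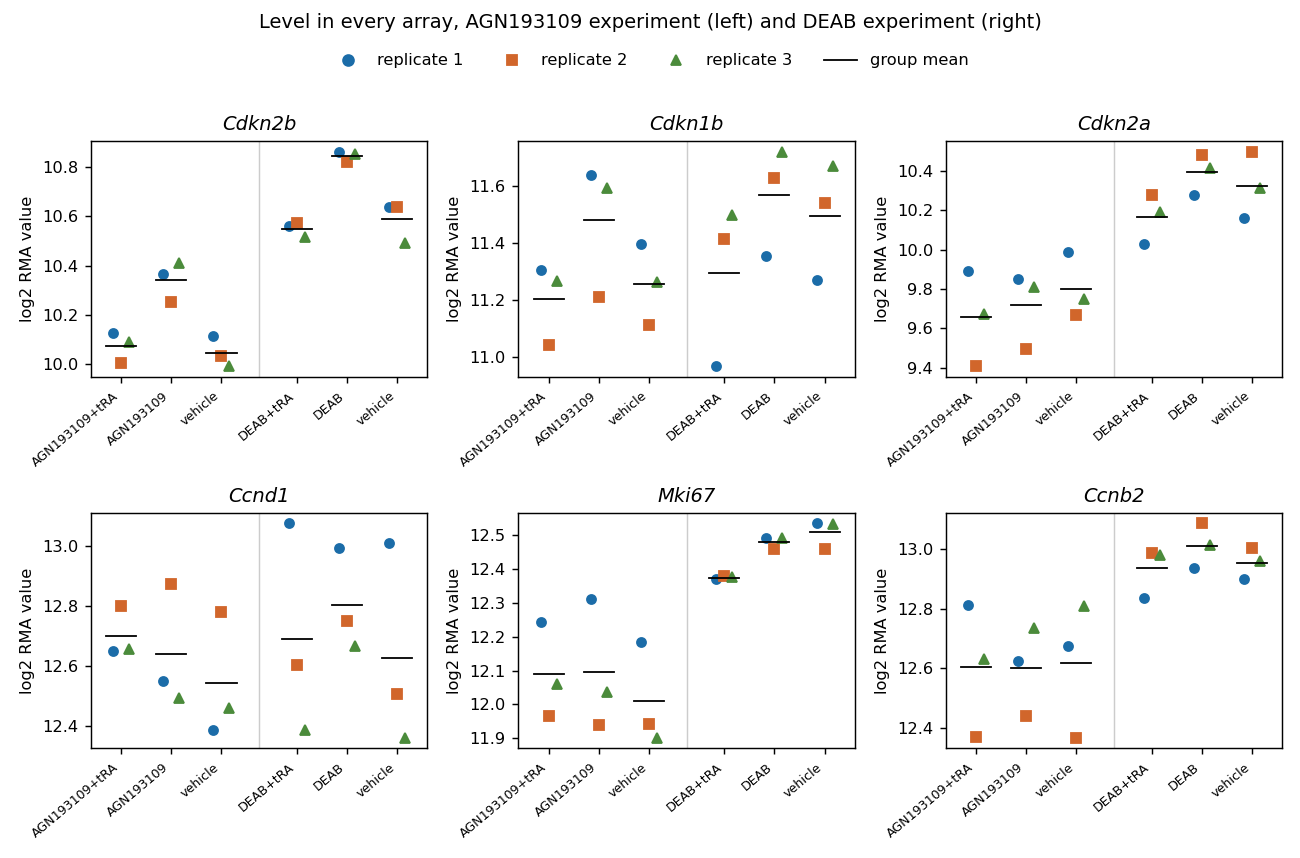
Log2 RMA level per array of Cdkn2b, Cdkn1b, Cdkn2a, Ccnd1, Mki67 and Ccnb2, with the AGN193109 experiment at the left and the DEAB experiment at the right of each panel. Markers give the replicate number and black lines the group mean; Cdkn2b separates by treatment, while Ccnd1 is highest in replicate 2 (AGN193109) or replicate 1 (DEAB) of every group.

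The D cyclins and their kinases showed no treatment effect past the test. Ccnd1, cyclin D1, read 12.65, 12.80 and 12.65 with AGN193109+tRA, 12.55, 12.87 and 12.49 with AGN193109 and 12.39, 12.78 and 12.46 with vehicle. Ccnd1 in the DEAB experiment read 13.08, 12.60 and 12.39 with DEAB+tRA, 13.00, 12.75 and 12.67 with DEAB and 13.01, 12.51 and 12.36 with vehicle. Replicate 1 was highest in each group of the DEAB experiment and replicate 2 in each group of the AGN193109 experiment. The largest treatment difference was 0.18 for DEAB versus vehicle (SE 0.21, adjusted p = 1, with the block SE 0.07 and adjusted p = 0.607). Ccnd2, cyclin D2, was dimmer, at 7.33, 7.42 and 7.54 with AGN193109+tRA, 7.13, 7.34 and 7.49 with AGN193109 and 7.19, 7.07 and 7.34 with vehicle. Its values in the DEAB experiment were 7.84, 7.58 and 7.78 with DEAB+tRA, 7.62, 7.58 and 7.50 with DEAB and 7.45, 7.44 and 7.57 with vehicle. It was 0.25 higher with DEAB+tRA than with vehicle (SE 0.07, adjusted p = 0.819, no overlap) and 0.23 higher with AGN193109+tRA (SE 0.11, adjusted p = 1, with overlap). Ccnd3, Cdk4 and Cdk6 differed by at most 0.12 in any comparison. The largest of these was for Cdk6, 0.12 higher with AGN193109+tRA than with AGN193109 without overlap (SE 0.07, adjusted p = 1).

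Among the G1/S genes, the clearest values were those of Tk1, the thymidine kinase of S phase. Its brighter cluster read 10.77, 11.08 and 11.14 with AGN193109+tRA, 11.14, 11.21 and 11.22 with AGN193109 and 11.14, 11.10 and 11.19 with vehicle. The DEAB arrays and their controls gave 11.63, 11.62 and 11.67 with DEAB+tRA, 11.84, 11.81 and 11.88 with DEAB and 11.77, 11.74 and 11.74 with vehicle. Every DEAB array was above every array of the other 2 groups, and the spread within groups was small. With DEAB+tRA it was lower than with DEAB (-0.20, SE 0.04, adjusted p = 0.119, with the block 0.0588) and lower than with vehicle (-0.11, SE 0.04, adjusted p = 0.819). With DEAB it was 0.09 higher than with vehicle (SE 0.04, adjusted p = 1). The dimmer Tk1 cluster gave -0.14 for DEAB+tRA versus DEAB (SE 0.04, adjusted p = 0.529), the same direction. Between AGN193109+tRA and AGN193109 the brighter cluster differed by -0.19 (SE 0.10, adjusted p = 1), with overlap.

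Cdc6 loads the replicative helicase on origins. It read 9.37, 9.16 and 9.21 with AGN193109+tRA, 9.30, 9.14 and 9.42 with AGN193109 and 9.33, 9.15 and 9.27 with vehicle. The DEAB experiment had 9.76, 9.83 and 9.79 with DEAB+tRA, 9.82, 9.84 and 9.82 with DEAB and 9.85, 9.97 and 10.03 with vehicle. Vehicle arrays of the DEAB experiment were above all others: Cdc6 was lower by 0.13 with DEAB (log2 difference -0.13, SE 0.05, adjusted p = 1) and by 0.16 with DEAB+tRA (-0.16, SE 0.05, adjusted p = 0.819). Differences from vehicle in the AGN193109 experiment were 0.03 with AGN193109 (SE 0.10) and under 0.01 in size with AGN193109+tRA.

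The remaining G1/S genes differed by at most 0.19 in size in every comparison. E2f1, which switches on S phase genes, read 10.69, 10.42 and 10.54 with AGN193109+tRA, 10.61, 10.46 and 10.61 with AGN193109 and 10.66, 10.50 and 10.59 with vehicle. E2f1 in the DEAB experiment read 10.40, 10.53 and 10.56 with DEAB+tRA, 10.53, 10.67 and 10.70 with DEAB and 10.53, 10.62 and 10.55 with vehicle. Its groups overlapped in all comparisons, with changes between -0.14 and 0.06. Cdk2, the partner of E and A cyclins, read 10.99, 10.90 and 10.99 with AGN193109+tRA, 11.04, 10.97 and 11.19 with AGN193109 and 10.99, 11.05 and 10.99 with vehicle. Cdk2 in the DEAB experiment read 11.21, 11.46 and 11.45 with DEAB+tRA, 11.39, 11.57 and 11.58 with DEAB and 11.44, 11.52 and 11.42 with vehicle. Its changes ran between -0.14 and 0.06 as well, again with overlap in every comparison.

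Mcm3 and Mcm6 are subunits of the replicative helicase. Mcm3 read 11.32, 11.45 and 11.61 with AGN193109+tRA, 11.51, 11.47 and 11.64 with AGN193109 and 11.46, 11.45 and 11.58 with vehicle. Mcm3 in the DEAB experiment read 11.80, 11.84 and 11.91 with DEAB+tRA, 11.91, 11.88 and 11.98 with DEAB and 11.82, 12.00 and 11.91 with vehicle. The groups overlapped, with changes of Mcm3 between -0.08 and 0.04. Mcm6 read 11.79, 11.67 and 11.73 with AGN193109+tRA, 11.85, 11.62 and 11.86 with AGN193109 and 11.82, 11.68 and 11.74 with vehicle. Mcm6 in the DEAB experiment read 12.00, 12.17 and 12.23 with DEAB+tRA, 12.02, 12.18 and 12.18 with DEAB and 12.15, 12.22 and 12.17 with vehicle. Changes of Mcm6 lay between -0.05 and 0.03, and those of Mcm2, Mcm4 and Mcm5 between -0.12 and 0.08. Both clusters of Pcna, the sliding clamp, lay between -0.05 and 0.00, and Rrm2, the small subunit of ribonucleotide reductase, between -0.07 and 0.00. For Ccne1, cyclin E1, the differences lay between -0.06 and 0.00, and for Ccne2, cyclin E2, the largest was 0.19 for AGN193109 versus vehicle (SE 0.13, adjusted p = 1), with overlap. Ccne2 was also lower with DEAB+tRA than with vehicle (-0.16, SE 0.07, adjusted p = 0.819, no overlap).

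Of the G2/M genes, Mki67, the antigen used to mark cycling cells, was arranged by replicate in 1 experiment and by treatment in the other. It read 12.24, 11.97 and 12.06 with AGN193109+tRA, 12.31, 11.94 and 12.04 with AGN193109 and 12.18, 11.94 and 11.90 with vehicle. Mki67 in the DEAB experiment read 12.37, 12.38 and 12.38 with DEAB+tRA, 12.49, 12.46 and 12.49 with DEAB and 12.53, 12.46 and 12.53 with vehicle. Replicate 1 was highest in each group of the AGN193109 experiment, while in the DEAB experiment the 3 arrays with DEAB+tRA were below all others. The difference of DEAB+tRA was -0.11 from DEAB (SE 0.04, adjusted p = 0.712) and -0.13 from vehicle (SE 0.04, adjusted p = 0.819). With AGN193109 it was 0.09 above vehicle (SE 0.12, adjusted p = 1), and without AGN193109 replicate 1 it was 0.02 below (log2 difference -0.02).

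Cdk1, the kinase that drives mitosis, read 12.54, 12.58 and 12.65 with AGN193109+tRA, 12.72, 12.63 and 12.80 with AGN193109 and 12.52, 12.54 and 12.61 with vehicle. Cdk1 in the DEAB experiment read 12.85, 12.97 and 12.96 with DEAB+tRA, 12.97, 12.98 and 13.05 with DEAB and 12.90, 13.03 and 12.98 with vehicle. With AGN193109 it was 0.16 above vehicle with no overlap (SE 0.07, adjusted p = 1), and with DEAB 0.03 above with overlap (SE 0.05). Cdc20, which activates the anaphase-promoting complex, read 11.47, 11.23 and 11.33 with AGN193109+tRA, 11.22, 11.22 and 11.31 with AGN193109 and 11.44, 11.41 and 11.34 with vehicle. Cdc20 in the DEAB experiment read 11.95, 11.95 and 11.95 with DEAB+tRA, 11.97, 11.91 and 11.92 with DEAB and 11.94, 12.03 and 11.93 with vehicle. With AGN193109 it was below vehicle by 0.15 (-0.15, SE 0.08, adjusted p = 1) and with DEAB by 0.03 (-0.03, SE 0.04), so Cdk1 and Cdc20 lay on opposite sides of vehicle with AGN193109.

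Ccnb2, cyclin B2, read 12.81, 12.37 and 12.63 with AGN193109+tRA, 12.62, 12.44 and 12.73 with AGN193109 and 12.68, 12.37 and 12.81 with vehicle. Ccnb2 in the DEAB experiment read 12.84, 12.99 and 12.98 with DEAB+tRA, 12.94, 13.09 and 13.02 with DEAB and 12.90, 13.00 and 12.96 with vehicle. Replicate 2 of the AGN193109 experiment was lowest in each group, and treatment differences of Ccnb2 lay between -0.08 and 0.06. Bub1b, a kinase of the spindle checkpoint, read 11.30, 10.97 and 11.11 with AGN193109+tRA, 11.16, 11.02 and 11.12 with AGN193109 and 11.22, 10.95 and 11.11 with vehicle. Bub1b in the DEAB experiment read 11.31, 11.47 and 11.45 with DEAB+tRA, 11.32, 11.53 and 11.43 with DEAB and 11.34, 11.49 and 11.42 with vehicle. Its treatment differences were at most 0.04 in size. Top2a, the topoisomerase that untangles chromosomes, read 12.52, 12.14 and 12.20 with AGN193109+tRA, 12.22, 12.12 and 12.33 with AGN193109 and 12.20, 12.14 and 12.07 with vehicle in its brighter cluster. The same cluster in the DEAB experiment read 12.39, 12.42 and 12.48 with DEAB+tRA, 12.47, 12.47 and 12.55 with DEAB and 12.47, 12.47 and 12.55 with vehicle. Top2a was 0.15 higher with AGN193109+tRA than with vehicle (SE 0.11, adjusted p = 1) and 0.07 lower with DEAB+tRA (-0.07, SE 0.05, adjusted p = 0.836), with overlap in both. Its dimmer cluster, near the floor of the array, was 0.36 lower with DEAB+tRA than with vehicle (-0.36, SE 0.13, adjusted p = 0.819).

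The rest of the G2/M genes (Ccna2, Plk1, Aurka, Aurkb, Birc5, Bub1, Cenpa, Cenpe, Kif11, Foxm1 and Cdc25c) had changes between -0.20 and 0.11. The lowest was that of Cdc25c, the phosphatase that activates Cdk1, for DEAB+tRA versus DEAB (-0.20, SE 0.08, adjusted p = 0.773, no overlap).

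Separation of the groups was also counted. With AGN193109 against vehicle, 2 cell cycle clusters were higher (Cdkn2b, Cdk1) and 2 lower (Mcm2, Cdc20) without overlap, where 6.02% of all clusters did not overlap. With AGN193109+tRA, 1 was higher (Cdk6) and 3 lower (Cdk4, Cdkn2b, Mcm5) than with AGN193109 (4.15% of all), and 0 differed from vehicle (3.87%). With DEAB, 3 were higher (Cdkn2b and both Tk1 clusters) and 2 lower (Cdk4, Cdc6) than with vehicle (6.89%). With DEAB+tRA, 10 of 42 were lower and 0 higher than with DEAB, where 9.21% of all clusters did not overlap and 4.54% were lower. Those 10 were Cdkn2a, Cdkn2b, the dimmer Cdkn1b cluster, Rrm2, both Tk1 clusters, Cdc25c, Foxm1, Mki67 and Plk1. Against vehicle, DEAB+tRA had 8 lower (Cdk4, Ccne2, Cdc6, Rrm2, Tk1, Cdc25c, Mki67 and the dimmer Top2a cluster) and 1 higher (Ccnd2), where 8.07% of all did not overlap and 3.34% were lower. The smallest two-sided p of an exact permutation test of 3 against 3 arrays is 0.1, so no such pattern can pass by itself.

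In the DEAB experiment the cell cycle genes lay slightly lower when tRA was present. With DEAB+tRA, 35 of 42 clusters were below DEAB, with a median change of -0.05, against 46.6% of all clusters and a median of 0.01. All but 6 were below vehicle, 36 of 42, with a median of -0.04, against 49% of all clusters and a median of 0.00; all 15 G1/S clusters were below. Housekeeping clusters were also below vehicle in 17 of 19 cases (median -0.02), but below DEAB in 4 of 19. These 19 clusters come from 10 genes, with several each for Ppia and Pgk1, so they are not separate controls. The counts depended on scaling and on single arrays. With quantile normalization again, 34 of 42 were below DEAB and 28 of 42 below vehicle (housekeeping 9 of 19), and without DEAB+tRA replicate 1 they were 27 and 30 of 42. In the AGN193109 experiment, 29 of 42 were below AGN193109 with AGN193109+tRA (median -0.04, against 55.8% of all clusters) and 24 of 42 below vehicle (median -0.01, against 49% of all). The members share samples and move together, so these counts carry no test.

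Further genes of the same pathways showed no calls without the block either. Of 40 clusters of other G1/S and replication genes, 46 of other G2/M genes, 17 of the Rb and E2F families and 14 of p53 targets and growth arrest genes, 0 passed in any comparison. At an unadjusted p under 0.05 in limma, these lists had at most 3 clusters in any of the comparisons. For DEAB+tRA versus DEAB, 44 of 46 other G2/M clusters and 33 of 40 other G1/S clusters were lower, against 46.6% of all clusters. With the block 2 passed there, the repressor E2f8 (0.34 higher, adjusted p = 0.0482) and the stress gene Gadd45g (0.40 higher, adjusted p = 0.0377), where the block called 1.50% of all clusters.

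The inhibitor effects on the cell cycle genes did not differ past the test between AGN193109 and DEAB. The difference of the effects was tested over all 18 arrays, and 0 of 42 clusters passed in limma, with 0 at an unadjusted p under 0.05 and 0 with the block. Of all clusters 0% passed, 2.30% had an unadjusted p under 0.05, and 0.00427% passed with the block. For Cdkn2b the difference was 0.04, with a 95% interval of -0.14 to 0.23.

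Some of these genes differed more between replicate numbers than between treatments. Replicate number was tested in limma with the treatment group as a covariate; each number is 1 independent experiment with 1 array per group, so the test is about these runs. In the DEAB experiment 3 of 42 clusters (Ccnd1, Cdkn1b and Cdkn2a) differed between numbers, a share equal to the background, where 7.14% of all clusters did. In the AGN193109 experiment 0 of 42 did, against 3.32% of all. At an unadjusted p under 0.05 they were 12 of 42 in the DEAB experiment (22.5% of all) and 9 of 42 in the AGN193109 experiment (20.7% of all).

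Cdkn1b had the largest F statistic among them in the DEAB experiment (43.9, adjusted p = 0.00651). Its mean over the 3 groups was 11.20 in replicate 1, 11.53 in replicate 2 and 11.63 in replicate 3, a span of 1.35-fold. This call held without any single array (adjusted p 0.0144 to 0.0389). Ccnd1 ran the other way (F 32.02, adjusted p = 0.0116), with means of 13.03 in replicate 1, 12.62 in replicate 2 and 12.47 in replicate 3, a span of 1.47-fold. Its call was lost without vehicle replicate 1 (adjusted p = 0.0575) and without DEAB+tRA replicate 1 (adjusted p = 0.0679). Cdkn2a (F 19.2, adjusted p = 0.0282) had means of 10.16, 10.42 and 10.31 in replicates 1, 2 and 3, and its call was lost whichever array was left out (adjusted p 0.0514 to 0.114).

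The same 3 genes were near the top in the AGN193109 experiment without passing. There Cdkn2a had means of 9.91, 9.52 and 9.75 in replicates 1, 2 and 3 (F 14.1, adjusted p = 0.0588), a span of 1.31-fold. Cdkn1b had 11.45, 11.12 and 11.37 (F 12.2, adjusted p = 0.0719), and Ccnd1 had 12.53, 12.82 and 12.54 (F 10.0, adjusted p = 0.0952). In each experiment the number with the highest Ccnd1 mean, replicate 2 with AGN193109 and replicate 1 with DEAB, had the lowest means of Cdkn1b and Cdkn2a. Mki67 differed between numbers in the AGN193109 experiment (means 12.25, 11.95 and 12.00, F 12.0, adjusted p = 0.0728) by a span of 1.23-fold, and with DEAB by 1.02-fold. Ccnb2 (means 12.70, 12.39 and 12.73, F 10.6, adjusted p = 0.0877) spanned 1.26-fold in the AGN193109 experiment and 1.1-fold in the DEAB experiment.

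**Figure D3:**
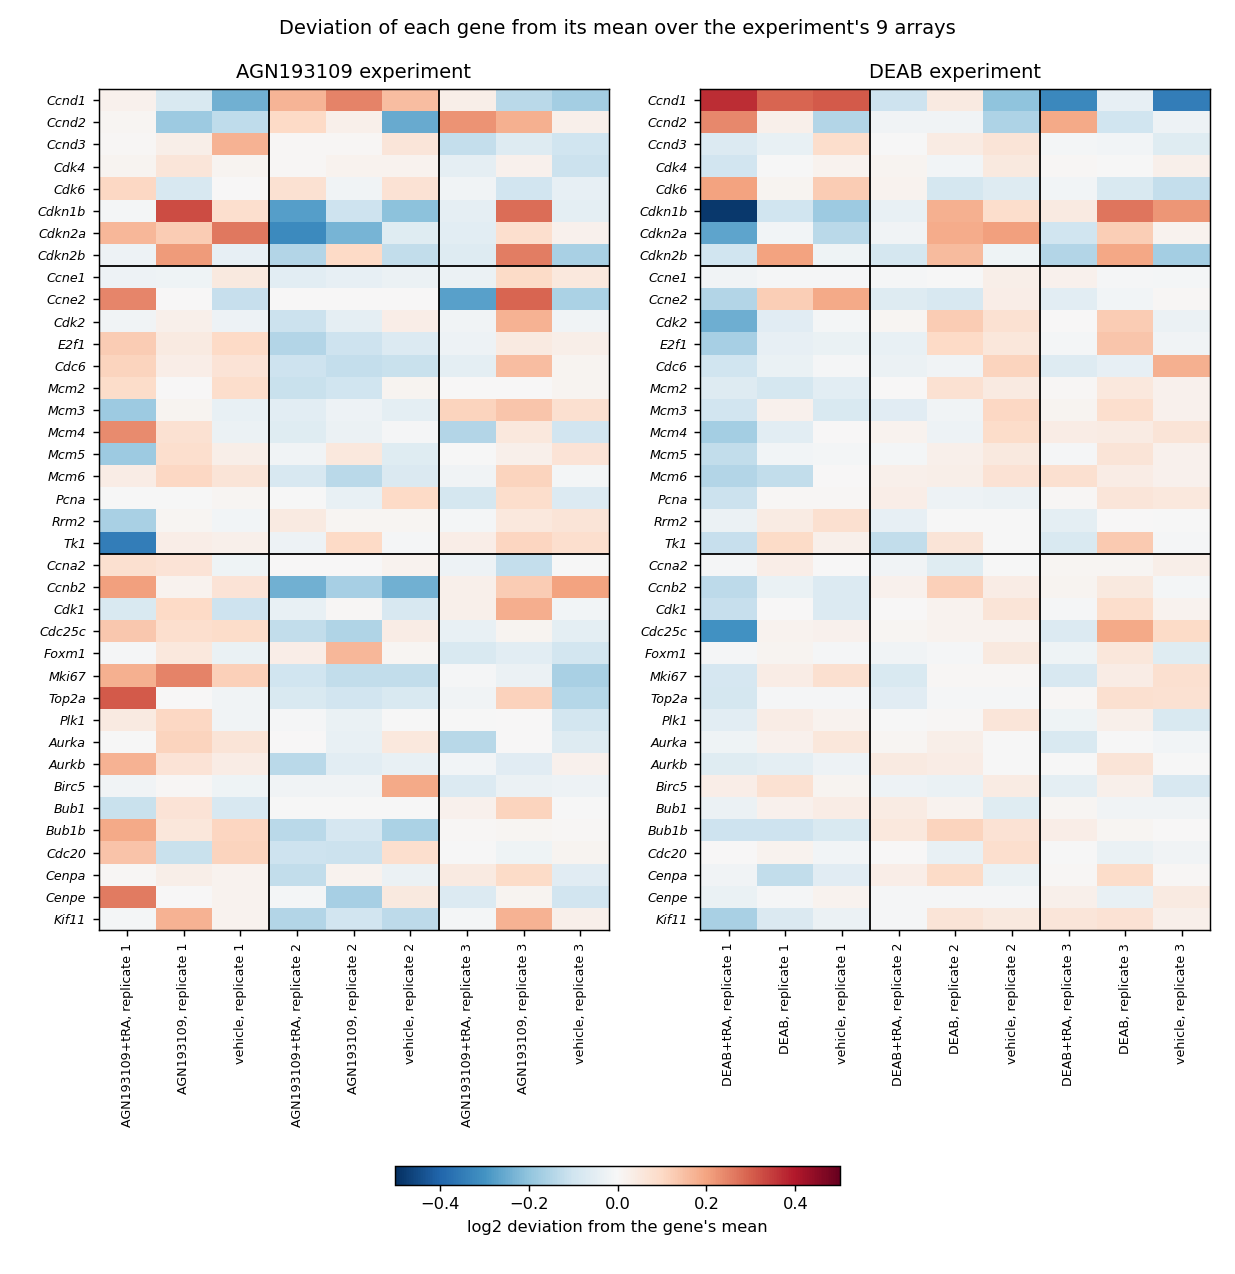
Deviation of each gene's log2 level (brightest cluster, 38 genes) from its mean over the 9 arrays of the experiment, with columns ordered by replicate number and, within it, inhibitor with tRA, inhibitor and vehicle. Black lines separate numbers and roles; the row of Cdkn2b changes within each number, while in the DEAB experiment the rows of Ccnd1, Cdkn1b and Cdkn2a change between numbers.

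Replicate 2 had the lowest mean for 21 of 42 clusters in the AGN193109 experiment (50%, against 34.5% of all clusters), and for 11 of 18 G2/M clusters. Replicate 1 had the lowest for 25 of 42 in the DEAB experiment (59.5%, against 39.5% of all), and for 12 of 15 G1/S clusters. With array medians subtracted, the counts were 27 (64.3%, against 52.4% of all) and 30 (71.4%, against 47.3% of all). Numbers of the 2 experiments do not correspond.

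The sum of squares over the 9 arrays of an experiment was split into the parts of treatment group, replicate number and remainder, as a description. Scatter between arrays alone gives each part a share, so a share by itself does not show an effect. Shares are therefore set beside those of all clusters. The median cell cycle cluster of the AGN193109 experiment had 20.6% for group and 46.2% for replicate number, against 16.2% and 37% for all clusters. With DEAB and its controls these were 27.1% and 39.1%, against 22.5% and 33.1%. The replicate part exceeded the group part for 29 of 42 clusters in the AGN193109 experiment (69%, against 70.5% of all) and for 25 of 42 in the DEAB experiment (59.5%, against 59.3%).

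Single genes lay at either end. For Cdkn2b the group part was 84.9% with AGN193109 and 89.9% with DEAB. For Bub1b the replicate part was 88% and 94.4%. Tk1 (brighter cluster) had 93.5% for group in the DEAB experiment but 40.4% in the AGN193109 experiment. Mki67 had 86.8% for replicate number in the AGN193109 experiment and 87.2% for group in the DEAB experiment.

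**Figure D4:**
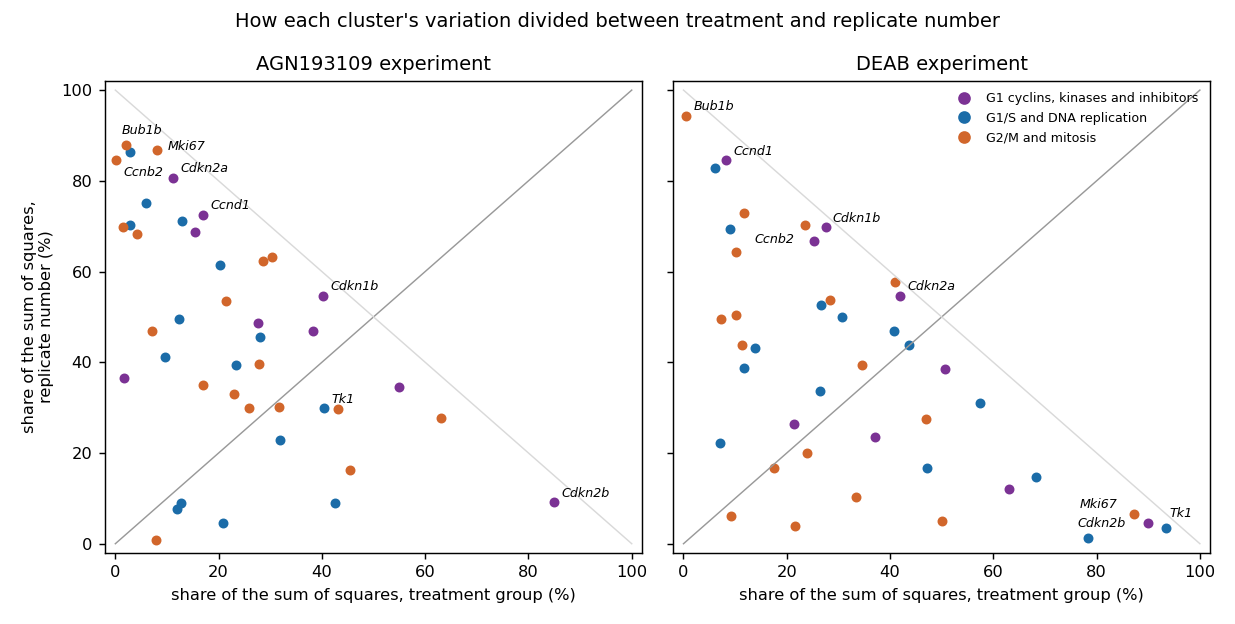
Percent of each cluster's sum of squares that belongs to treatment group (horizontal) and to replicate number (vertical), for the 42 cell cycle clusters in each experiment. The rising diagonal marks equal parts and the pale falling line a remainder of 0. Cdkn2b lies far below the rising diagonal in both experiments, and Bub1b far above that diagonal.

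The replicate test reached other growth genes at varied rates. In the AGN193109 experiment it called 1 of 40 other G1/S clusters (Cdc7), 1 of 46 other G2/M clusters (Pbk), 0 of 17 of the Rb and E2F families and 2 of 14 p53 and growth arrest genes (Mdm2 and Gas1). In the DEAB experiment it called 4 of 40, 0 of 46, 3 of 17 (Rb1, Tfdp2 and Rbl1) and 5 of 14 of the same lists. The shares over all clusters were 3.32% (AGN193109) and 7.14% (DEAB). The Rb gene itself, Rb1, was 0.33 higher in replicate 2 and 0.31 higher in replicate 3 than in replicate 1 of the DEAB experiment (F 27.7, adjusted p = 0.0152), and the Ink4 inhibitor Cdkn2c 0.37 and 0.44 higher (F 29.2, adjusted p = 0.0137). Of the housekeeping clusters 0 of 19 passed in either experiment, of the markers of other cells 1 of 13 in each, and of the collecting duct and epithelial markers 1 of 12 with AGN193109 and 3 of 12 with DEAB.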

How the data were processed

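Each of 18 mIMCD-3 cultures was read on 1 array (Affymetrix Mouse Gene 1.0 ST). The authors normalized the arrays by RMA in Affymetrix Expression Console (version not given in the sources used here) and deposited log2 values, used as they are. Groups follow the sample titles, whose spelling of AGN193109 was kept where other fields differ; which experiment a vehicle array belongs to was read from how its short name is written. Of 35556 clusters, 23410 with a symbol in GEO's platform annotation were tested. Comparisons used limma 3.58.1 (R 4.3.3) on group means, 1 fit for each experiment, with Benjamini-Hochberg adjustment over 23410 and an adjusted p threshold of 0.05. Replicate number was a moderated F-test with group as a covariate. The numbers mark independent experiments, and residuals of same-numbered arrays correlated at 0.198 to 0.645 (AGN193109) and 0.179 to 0.614 (DEAB), so a second fit held replicate number as a block. An SE or p-value of a treatment comparison is from the first fit unless the block is named. Tests were tried on simulated data. Values in every array are given for genes called in any test, the 2 of each role with the largest replicate F per experiment, the 3 with the smallest p in each comparison, and Mki67, Ccnd1 and Cdkn1b. Where a gene has several clusters, the brightest is used unless another is named. Members and lists were chosen with earlier results of these data known. Alternatives were the block, quantile normalization again, array medians subtracted, dim clusters left out, all clusters, only the arrays compared, 18 arrays in 1 fit, trend and robust options, and each array left out. The number of arrays limits the precision. Figures used matplotlib 3.10.9.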

Additional observations from a re-analysis of the deposited data

Results flagged for a closer look

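For 3 genes of G2 and mitosis, the difference between inhibitor with tRA and vehicle had opposite signs in the 2 experiments. This held in every pair of arrays with the same number. These genes were picked by their signs from 42 cell cycle clusters. The share of all clusters with such signs was not counted, so whether 3 is more than chance gives was not tested. Cdk1 differed by 0.0356 between AGN193109+tRA and vehicle and by -0.0446 between DEAB+tRA and vehicle. Mki67 differed by 0.0804 with AGN193109+tRA and by -0.1345 with DEAB+tRA. Top2a differed by 0.1507 with AGN193109+tRA and by -0.0688 with DEAB+tRA. Whether the differences themselves differ between the experiments was not tested, tRA was given at unequal concentrations, and none of the 6 values passed the test within its experiment. Ppbp and Dhrs3 also lay below vehicle with AGN193109+tRA and above it with DEAB+tRA.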

How the results depend on the processing

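Counts of cell cycle clusters past an adjusted p of 0.05 stayed at 0 for AGN193109 versus vehicle, AGN193109+tRA versus AGN193109, AGN193109+tRA versus vehicle, DEAB versus vehicle, DEAB+tRA versus vehicle and the difference of the inhibitor effects under all alternatives run, each array left out included. For DEAB+tRA versus DEAB the count of 0 became 2 with the replicate block (Cdkn2b and Cdkn1b), 1 with dim clusters left out (Cdkn2b) and 2 with the trend and robust options (Cdkn2b and Tk1), and ran between 0 and 1 with single arrays left out. The block changed no other call. The replicate number count of 0 in the AGN193109 experiment became 1 with quantile normalization again, 3 with array medians subtracted, 3 with dim clusters left out, 5 with the trend and robust options and 8 with 18 arrays in 1 fit, and stayed at 0 with single arrays left out. In the DEAB experiment the count of 3 became 2 with quantile normalization again (Cdkn2a lost, adjusted p = 0.0598), 4 with array medians subtracted (Bub1b added, adjusted p = 0.0444), 6 with dim clusters left out, 1 with all clusters and 11 with the trend and robust options, and ran between 1 and 3 with single arrays left out, with 1 (Cdkn1b) without vehicle replicate 1 or without DEAB+tRA replicate 1. The cause of these changes was not tested. Dim clusters left out and all clusters alter how many tests are adjusted for and also the clusters from which limma takes its shared variance. With all clusters, the F of Ccnd1 for replicate number in the DEAB experiment went from 32.02 to 27.72. Median shares for replicate number ran between 45.8% and 60.1% (AGN193109) and between 39.5% and 46.5% (DEAB), and those for group between 14.3% and 21.4% and between 25.7% and 28.5%. Over all clusters, calls moved more: those for DEAB+tRA versus DEAB ran between 22 and 351 against 76, those for AGN193109 versus vehicle between 2 and 107 against 16, and those for DEAB versus vehicle between 5 and 71 against 8. AGN193109+tRA versus AGN193109 ran between 0 and 19 against 5, replicate number between 45 and 3513 against 777 (AGN193109) and between 447 and 3281 against 1672 (DEAB). Ccnd1, Cdkn1b and Mki67 changed sign in some comparisons with 1 array left out, where their differences were small. With 3 arrays a group, changes under about 1.5-fold could pass unseen.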

Other observations

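In the AGN193109 experiment, 18 of 42 cell cycle clusters held the same deposited value in at least 2 arrays, against 49.7% of all clusters. In the DEAB experiment 16 of 42 did, against 57.8% of all. Ccne2 had 1 value in 4 arrays of the AGN193109 experiment, and Cenpe in 4 arrays of the DEAB experiment.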
